A study of Rattus norvegicus with 9 samples.

Results

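Genes that mark inhibitory neurons and stress peptide signalling were followed in the dorsal hippocampus of adult rats: Gad1, Gad2, Sst, Npy, Pvalb, Vip, Cck and Crh. They were chosen by Ensembl identifier, 8 of the 32545 genes in the count files. Npy had no read in any library, so 7 genes could be measured, and all 7 were among the 14463 genes that passed the filter on low counts. Messenger RNA was sequenced from 9 male Sprague-Dawley rats, an outbred laboratory stock, at 8 weeks of age. The 4 control rats had control rearing and the 5 other rats had early-life adversity (ELA), stress in infancy whose form the labels do not describe. None of the rats had been through behavioural testing, no genotype or drug was involved, and each library came from 1 rat. The labels do not say which rats were littermates.

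Gad1 and Gad2 encode the larger and the smaller form of glutamate decarboxylase, the enzyme that makes the inhibitory transmitter GABA from glutamate. In the hippocampus GABA is made by local interneurons, which are sorted into classes by what else they express. Somatostatin (Sst) marks cells that contact the dendrites of pyramidal neurons, parvalbumin (Pvalb) marks fast-spiking cells that contact their somata and axon, and vasoactive intestinal peptide (Vip) marks cells many of which inhibit other interneurons. Neuropeptide Y (Npy) occurs in several of these classes. Cholecystokinin (Cck) is made by a class of basket cells and also by pyramidal neurons, so it is not purely an interneuron transcript. Corticotropin-releasing hormone (Crh), the peptide that starts the hormonal stress response from the hypothalamus, is made in the hippocampus by a small number of interneurons.

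Sst and Vip are textbook targets of cyclic AMP signalling through the CRE, a motif bound by the factor CREB. A stretch of each is shown, which holds the full CRE for Sst and only a shorter part of it for Vip. The stretches were chosen with the separation of the groups in Vip known, and a link between these letters and rearing was not tested. RefSeq sequences of the GRCr8 build, not the rn6 build of the counts, were matched by symbol for 6 of the 8 genes, in windows of 250 bases before to 50 bases after the annotated start. Cck and Crh were not in that table. Capitals mark the motifs searched on both strands: the CRE TGACGTCA, its half-site TGACG, which is also part of the full CRE, and the TATA box TATAAA. The Vip stretch is the last 120 bases before the start (GRCr8 chr1:44470360-44470479, plus strand) and the Sst stretch is the 30 bases around its CRE (GRCr8 chr11:90461537-90461566, plus strand).
Vip: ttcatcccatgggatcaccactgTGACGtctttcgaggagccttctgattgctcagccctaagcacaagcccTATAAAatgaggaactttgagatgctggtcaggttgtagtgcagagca
Sst: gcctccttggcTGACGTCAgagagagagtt
The Sst window held the full CRE at position 3, after the annotated start, and 1.83% of all 33469 windows of this length held a full CRE. The Vip window held 1 half-site at position -97 from the start, and the Pvalb window held 1 at position -241; 21.2% of all windows held at least 1. The TATA box letters were found in the Vip window at positions -175, -165 and -48, in the Gad1 window at -213, and in 14.2% of all windows. These matches describe the letters only.

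The question was whether transcripts of the inhibitory system differed in adult rats after early adversity. In edgeR's quasi-likelihood test 0 of the 7 measured genes reached an adjusted p under 0.05 (Benjamini-Hochberg over 14463 genes), against 6 of all genes tested, 0.0415%. Vip, Cck and Pvalb had an unadjusted p under 0.05 and lower means in the ELA rats, 3 of 7, where 4.71% of all genes tested did. For 6 of the 7 genes, all but Crh, edgeR gave a log2 fold change below 0, compared with 48.7% of all genes tested for which it did. Their median log2 fold change was -0.18, and that of all genes tested was 0.0035. The genes share rats and some vary together, so these counts describe the 7 genes and were not tested as a set. DESeq2, which called 0.98% of all genes, also called 0 of the 7. Limma-voom with equal sample weights called 6 of all 14463 genes and 0 of the 7. Limma-voom with sample weights called 2.11% of all genes and 1 of the 7, Cck. In bulk tissue, fewer cells of a type and less RNA per cell cannot be told apart.

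The libraries held 11049282 to 17089188 reads assigned to genes, and values are given as CPM, a gene's reads scaled to a common library size. Control replicate 1 lay apart from the other controls on the main axis of variation (the first principal component over the 500 other genes with the highest variance), which held 33.9% of their variance. It scored -5.31, against 7.62 to 12.8 in control replicates 2 to 4 and -12.3 to 3.64 in the ELA rats. Without it, 130 of 14561 genes (0.893%) were called by edgeR, and still 0 of the 7. Marker genes of other cell types could not be read, because no source used here pairs the other identifiers with symbols, so the dissection was not checked against other markers and the part of tissue makeup was not tested.

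**Figure D1:**
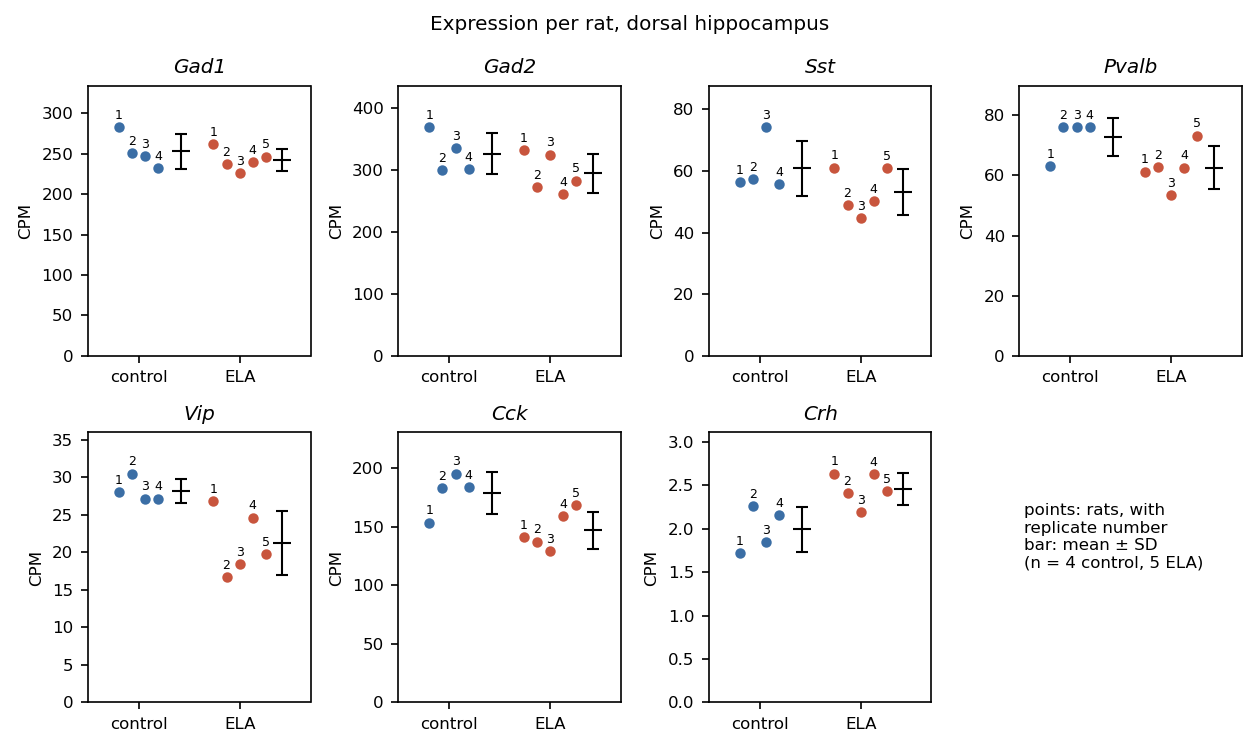
CPM of the 7 measured genes (vertical axes, from 0) in each control and ELA rat, with replicate numbers above the points and black bars for the mean ± SD (n = 4 and 5). Vip is the 1 gene of the 7 in which every ELA rat lies below every control, while for Crh 4 of the 5 ELA rats lie above every control.

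With all 9 libraries, the GABA-synthesising enzymes had the smallest log2 fold changes of the 7 genes in size, and Gad2 spread more between rats than Gad1. Gad1 (ENSRNOG00000000007) was at 283, 250.4, 247 and 232 CPM in control replicates 1 to 4 and at 262, 237, 226, 239 and 246 CPM in ELA replicates 1 to 5. The highest value was a control and the lowest an ELA rat, but the groups overlapped over most of their range. The means were 253 ± 21.5 and 242 ± 13.2 CPM (SD, n = 4 and 5), and edgeR put the log2 fold change at -0.05 (standard error 0.067, adjusted p = 0.890). Its 95% interval ran from -0.20 to 0.09, from 1.15-fold lower to 1.07-fold higher in ELA rats. Without control replicate 1 the log2 fold change turned to 0.0070 (edgeR unadjusted p = 0.911).

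Gad2 (ENSRNOG00000018200) was at 369, 299, 335 and 302 CPM in the controls and at 331, 272, 324, 260.4 and 283 CPM in the ELA rats. ELA replicates 2, 4 and 5 were below every control and the other two lay among the controls. The means were 326 ± 32.7 and 294 ± 31.8 CPM (SD, n = 4 and 5), and edgeR put the log2 fold change at -0.14 (standard error 0.086, 95% interval -0.32 to 0.05, adjusted p = 0.682). Without control replicate 1, the rat with the most Gad2, the log2 fold change was -0.07. Within a library, the CPM of Gad2 was 1.29 ± 0.0675 times that of Gad1 in controls and 1.22 ± 0.138 times in ELA rats (SD, n = 4 and 5). This ratio, which depends on transcript length and is compared only between rats, was lowest in ELA replicate 4 at 1.09 and highest in ELA replicate 3 at 1.44, so the ELA rats spanned the whole range of the controls.

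Vip (ENSRNOG00000018808) showed the largest difference in size of the 7 genes. It was at 28.0, 30.5, 27.1 and 27.1 CPM in the controls and at 26.8, 16.7, 18.4, 24.6 and 19.8 CPM in the ELA rats. Every ELA rat was below every control, by a narrow margin for ELA replicate 1; such a gap, lower in ELA, was found in 1.85% of all genes tested. The means were 28.2 ± 1.57 and 21.3 ± 4.28 CPM (SD, n = 4 and 5), which corresponds to a 1.32-fold lower level (95% interval 1.10 to 1.57). EdgeR gave a log2 fold change of -0.40 (standard error 0.119, unadjusted p = 0.00562, adjusted p = 0.276), and Vip ranked 294th of all genes tested by p. The controls lay within 1.12-fold of each other, whereas the ELA rats spread over 1.60-fold. Without ELA replicate 1, the ELA rat closest to the controls, the log2 fold change was -0.50 (edgeR unadjusted p = 0.000518, adjusted p = 0.127). Without ELA replicate 2, the rat lowest in Vip, it was -0.33 (edgeR unadjusted p = 0.0129, adjusted p = 0.531).

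Sst (ENSRNOG00000001837), the other peptide of a distinct interneuron class, was at 56.4, 57.4, 74.2 and 55.7 CPM in the controls and at 61.0, 48.9, 44.8, 50.2 and 60.8 CPM in the ELA rats. ELA replicates 2, 3 and 4 were below every control, and ELA replicates 1 and 5 were above 3 of the 4 controls. The means were 60.9 ± 8.88 and 53.2 ± 7.38 CPM (SD, n = 4 and 5). EdgeR estimated the difference at -0.18 on the log2 scale (standard error 0.112, 95% interval -0.43 to 0.06, adjusted p = 0.668). Control replicate 3 decided much of its size: without that rat it was -0.08. Npy (ENSRNOG00000046449), by contrast, was listed at 0 in all 9 libraries, where a count of 0 allows up to 0.176 to 0.272 CPM depending on the library. Interneurons of the hippocampus are known to make Npy, so the listed identifier gives no measure of this gene here. How the reads of that locus were assigned was not tested.

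Pvalb (ENSRNOG00000006471) encodes the calcium-binding protein of fast-spiking interneurons. It was at 63.2, 76.0, 76.0 and 76.1 CPM in the controls and at 61.3, 62.7, 53.4, 62.6 and 73.3 CPM in the ELA rats. Control replicates 2 to 4 were nearly equal and above every ELA rat, while control replicate 1 lay among the ELA rats. The means were 72.8 ± 6.41 and 62.6 ± 7.10 CPM (SD, n = 4 and 5), and the log2 fold change was -0.21 (edgeR, standard error 0.089, unadjusted p = 0.0394, adjusted p = 0.498). Without control replicate 1 the log2 fold change was -0.27 (edgeR, unadjusted p = 0.00982, adjusted p = 0.188). The unadjusted p was above 0.05 in the fits without any 1 of the other 3 controls or of ELA replicates 1 to 4, and it was 0.00330 without ELA replicate 5 (edgeR).

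Cck (ENSRNOG00000019321), the peptide shared by basket cells and pyramidal neurons, was at 153, 183, 195 and 184 CPM in the controls and at 141, 137, 129, 159 and 168 CPM in the ELA rats. Control replicates 2 to 4 again stood above every ELA rat, and control replicate 1 lay between ELA replicates 1 and 4. The means were 179 ± 17.8 and 147 ± 16.1 CPM (SD, n = 4 and 5), a 1.21-fold lower level in ELA rats (95% interval 1.06 to 1.38). The log2 fold change was -0.27 (edgeR, standard error 0.087, unadjusted p = 0.00813, adjusted p = 0.316). It was -0.34 without control replicate 1 (edgeR, adjusted p = 0.0749). Limma-voom with sample weights gave -0.35 and an adjusted p of 0.0394, the 1 fit of 20 alternatives in which a member was called; in that fit 2.11% of all genes tested were called.

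Crh (ENSRNOG00000012703) had few reads, 22 to 45 per library, and its mean was higher in the ELA rats. It was at 1.71, 2.26, 1.84 and 2.16 CPM in the controls and at 2.63, 2.41, 2.19, 2.62 and 2.43 CPM in the ELA rats. In 4 of the 5 ELA rats the level was above every control, and ELA replicate 3 lay between control replicates 4 and 2. The means were 1.99 ± 0.256 and 2.46 ± 0.184 CPM (SD, n = 4 and 5), a 1.24-fold higher level with an interval from 0.974 to 1.58 times the control level. The log2 fold change was 0.31 (edgeR, standard error 0.16, unadjusted p = 0.0772, adjusted p = 0.588). Without control replicate 1, the rat lowest in Crh, the log2 fold change was 0.25 (edgeR, unadjusted p = 0.182). With all 9 libraries DESeq2 also gave 0.31, with a larger standard error of 0.229 (Wald test, unadjusted p = 0.175). Counting alone limits these values: the 22 reads of control replicate 1 carry an exact 95% Poisson interval of 13.8 to 33.3 reads and the 45 reads of ELA replicate 1 one of 32.8 to 60.2 reads, both for counting error only. Across rats of a group the variance of the Crh counts was 0.302 times that expected from counting noise, so the spread between rats was not larger than counting error. The standard error and interval from edgeR may therefore be too narrow for Crh.

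**Figure D2:**
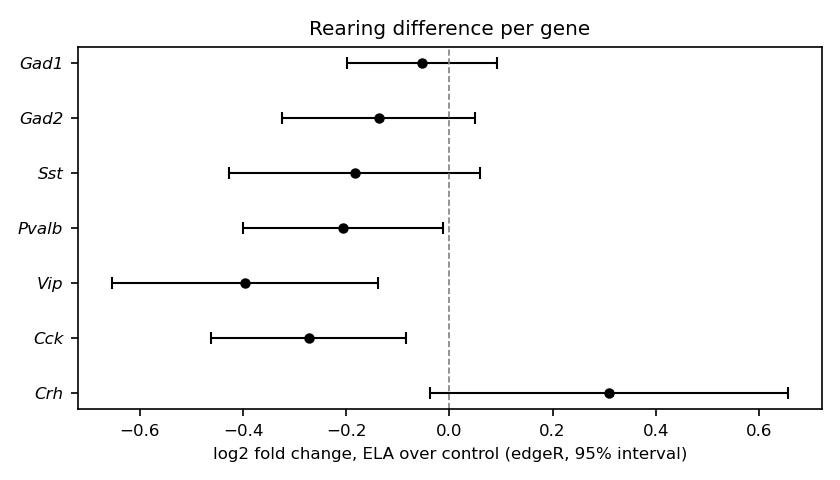
Log2 fold change of ELA over control rats (horizontal axis) with its 95% interval from the edgeR fit for each measured gene, with a dashed line at 0. The intervals of Vip, Cck and Pvalb lie below 0 before adjustment for multiple tests, and those of Gad1, Gad2, Sst and Crh cross it.

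The other 6 genes varied between rats of a group well beyond counting noise, with a variance 7.86 (Vip) to 46.2 (Gad2) times that expected from counting. The SD of log2 CPM within groups was 0.104 for Gad1, 0.150 for Gad2, 0.157 for Pvalb, 0.153 for Cck, 0.198 for Sst and 0.209 for Vip. Set against the 1000 tested genes nearest in mean expression, this SD exceeded that of 89.9% of those genes for Sst, 87.3% for Vip, 84.3% for Pvalb, 81.1% for Cck and 79.6% for Gad2. For Gad1 the share was 58.5%. Thus 5 of these 6 transcripts spread more between rats of a group than most genes of their level, and Gad1 was nearer the middle. Crh went the other way: its SD of 0.136 exceeded that of 1.4% of the genes nearest to it in mean expression. Over all 9 rats the highest CPM was 1.66 times the lowest for Sst and 1.82 times for Vip.

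Among the 21 pairs of genes, Cck and Pvalb varied together across rats. Pearson's r of their log2 CPM was 0.94 over the 9 libraries (exact permutation p = 0.000854, adjusted p = 0.0179 over 21 pairs). Spearman's rho was 0.83 (exact permutation p = 0.00827, adjusted p = 0.174). With the group means taken out r was 0.91 (permutation p = 0.000967, adjusted p = 0.0203). That p is approximate and may be too small, because deviations from the group means were permuted across both groups. Among the 5 ELA rats r was 0.89, and among the 4 controls it was 0.95. The control value rests on control replicate 1, as control replicates 2 to 4 were nearly equal in Pvalb (76.0 to 76.1 CPM). With the 2 rats most extreme in Pvalb left out r was 0.89 over 7 libraries, control replicate 1 among them (exact permutation p = 0.0171, adjusted p = 0.358). The CPM of Cck stayed between 2.19 and 2.57 times that of Pvalb, a 1.17-fold range, although each gene ranged over 1.43-fold (Pvalb) or 1.51-fold (Cck).

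**Figure D3:**
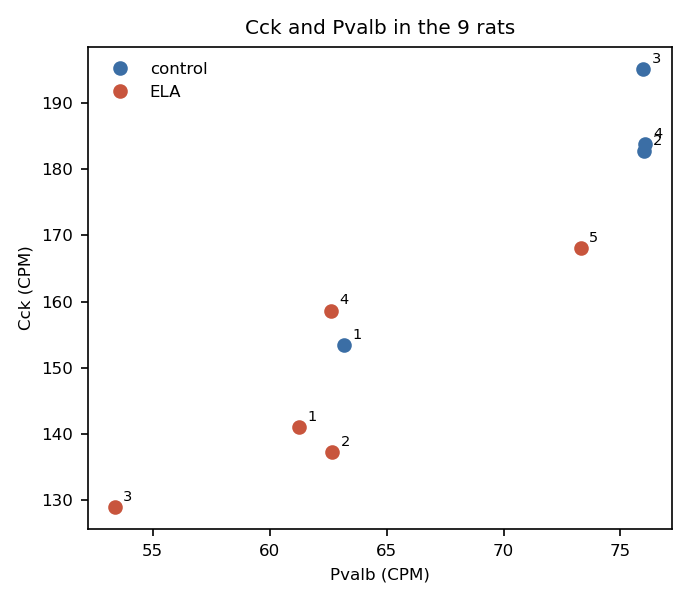
CPM of Pvalb (horizontal axis) and Cck (vertical axis) in the 9 rats, with replicate numbers beside the points; neither axis starts at 0. Control replicates 2 to 4 lie at the upper right, ELA replicate 3 at the lower left, and control replicate 1 lies among the ELA rats.

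By r over the 9 libraries Cck ranked 13th of the 14462 other tested genes in likeness to Pvalb, and Pvalb ranked 34th in likeness to Cck, for which 99 genes had an r above 0.9. With the group means taken out these ranks were 99th and 186th. Both transcripts had a positive r with the main axis of variation of the other genes, which did not pass adjustment for either. With the group means taken out this r was 0.83 for Cck and 0.66 for Pvalb (permutation, adjusted p = 0.0791 and 0.276). The values that follow are as measured. For Cck r was 0.91 and rho 0.88 (exact permutation p = 0.00162 and 0.00308), for Pvalb 0.79 and 0.70 (exact permutation p = 0.0144 and 0.0433), and with the 2 most extreme libraries on the component left out, r was 0.88 and 0.64. Of 42 relations between the 7 genes and 6 library measures, 0 passed adjustment over the values as measured (the nearest was Cck with the component, adjusted exact permutation p = 0.0681). With the group means taken out, Pvalb and Cck had an r of 0.89 and 0.87 with the share of reads in the 10 most abundant genes. The permutation p was 0.000956 and 0.00285, with adjusted p = 0.0402 and 0.0600 over the 42 relations. These p-values are approximate and may be too small, as deviations were permuted across both groups. The Pvalb relation, narrowly under 0.05, is therefore not settled. The part of that share of reads in the rearing differences was not tested.

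**Figure D4:**
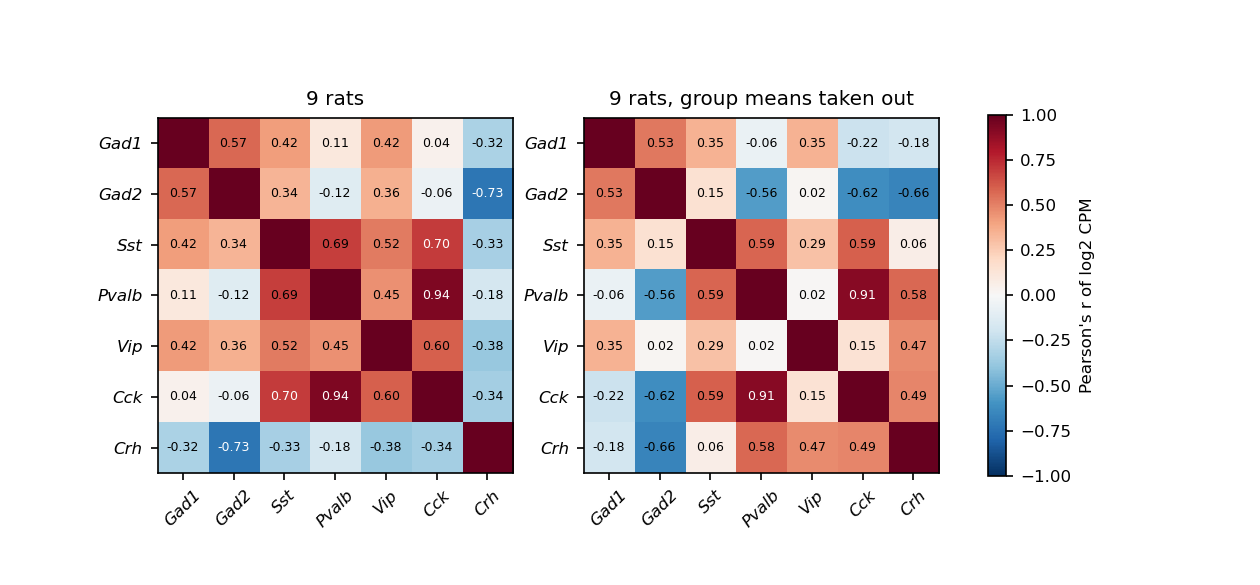
Pearson's r of log2 CPM for each pair of the 7 genes over 9 rats, with the colour scale running from -1 to 1, as measured (left) and with the group means taken out (right). Cck and Pvalb have the highest r in both panels, 0.94 and 0.91.

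The remaining pairs did not pass adjustment (exact permutation, adjusted p of at least 0.192). Sst had an r of 0.69 with Pvalb and 0.70 with Cck (exact permutation p = 0.0365 and 0.0337, rho 0.45 and 0.57 with exact permutation p = 0.230 and 0.121), and these were 0.41 and 0.29 with the 2 rats most extreme in Sst left out. Gad2 and Crh had an r of -0.73 (exact permutation p = 0.0262; rho -0.58, exact permutation p = 0.108), and -0.41 with the 2 rats most extreme in Gad2 left out. Gad1 and Gad2, which act in the same reaction, had an r of 0.57 (exact permutation p = 0.107) and a rho of 0.47 (exact permutation p = 0.213). Gad2 ranked 438th of 14462 genes in likeness to Gad1, or 1000th with the group means taken out. In the other direction Gad1 ranked 1534th in likeness to Gad2, or 2871st with the group means taken out. Vip had an r of 0.60 with Cck (exact permutation p = 0.0937; rho 0.58, exact permutation p = 0.108), and of 0.15 once the group means were taken out.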

How the data were processed

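Per the labels' protocols, RNA was isolated with a column kit, poly(A) RNA was selected and libraries were made with the TruSeq v2 kit. The authors deposited raw read counts per Ensembl gene, 1 file per rat. Per the submitters' processing notes, STAR 2.5.0, HTSeq 0.6.1 and the build rn6 were used; the sources used here do not state the annotation release or strand setting, so reads of overlapping or antisense genes cannot be told apart. The 5 summary entries of each file, 34.3 to 38.1% of its records, were left out of library sizes. Replicates are separate rats, grouped by title.

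The 8 genes, their symbols and the lists were chosen with earlier results of these data known. The name table of 47357 genes held 0 Ensembl identifiers, so the 32545 identifiers of the files could not be matched to it. The symbols are those given with the chosen identifiers, and 12 lists of pathway and marker genes could not be read. The named genes are the 8 members; genes alike in pattern would have been named only with a symbol.

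The tests were run with edgeR 4.0.16 in R 4.3.3: filterByExpr by group, TMM scaling, the robust quasi-likelihood test of ELA against control over 9 libraries with no covariate, and Benjamini-Hochberg adjustment. CPM values per rat used total gene counts. A standard error is the log2 fold change divided by the square root of F. Correlations used log2 CPM with TMM scaling and a prior count of 2, with two-sided exact permutation p-values over all pairings (Python). With the group means taken out, deviations were permuted across both groups, so those p-values are approximate and may be too small. Alternatives were other scalings and filters, DESeq2 1.42.0, limma-voom (limma 3.58.1), replicate blocks, and each library left out in turn; limma-voom with equal sample weights was added after the data had been seen. The edgeR, DESeq2 and limma steps were tested on simulated data. Depth limits the precision of Crh most.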

Additional observations from a re-analysis of the deposited data

Results flagged for a closer look

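Dixon's ratio was computed for the 7 genes in each group, 14 sets of CPM values, to find rats far from their group. Chance would mark about 1 in 20 sets, and 2 were marked. Control replicate 3 had 74.2 CPM of Sst, against 55.7 to 57.4 CPM in the other controls. Control replicate 1 had 63.2 CPM of Pvalb, against 76.0 to 76.1 CPM in the other controls.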

How the results depend on the processing

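Of the 7 genes, 0 were called with any 1 library left out (0 in each of 9 fits) and 0 in 10 of the other 11 fits, with 1 called by limma-voom with sample weights. Over 20 alternatives the sign of the log2 fold change was the same for Gad2, Sst, Pvalb, Vip, Cck and Crh. Gad1 kept it in 19, with -0.10 to 0.0070 when 1 library was left out and 0.0070 without control replicate 1. With 1 library left out the log2 fold change ran from -0.50 to -0.33 for Vip, -0.34 to -0.23 for Cck, -0.28 to -0.15 for Pvalb and 0.25 to 0.38 for Crh, and the unadjusted edgeR p was at most 0.0209 for Vip and 0.0318 for Cck. Over all alternatives the adjusted p ran from 0.0832 to 0.742 for Vip and from 0.0394 to 0.836 for Cck.

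The number of genes called over the whole table was 6. It was 11 with no filter, 142 by DESeq2, 305 by limma-voom with sample weights, and 2 to 130 with 1 library left out. Same-numbered rats are not stated to share a litter. In each numbering 2 of the 4 same-numbered pairs had deviations that correlated above 0.1. With only 4 pairs, whose deviations were taken from small group means, this cannot decide whether rats were paired. The replicate block by title number called 1 gene and the replicate block by description number 78 genes, with 0 of the 7 in both. The number of gene pairs whose correlation passed was 1. It was also 1 with group means taken out, where the permutation p is approximate. It was 0 without the 2 libraries farthest from the median, where fewer rats remain.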
